A study of Mus musculus with 6 samples.

Results

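The genes examined were 10 mouse genes for the enzymes that methylate lysine 9 of histone H3 (H3K9), their cofactors, and the HP1 proteins that bind the methylated lysine: Setdb1, Ehmt1, Ehmt2, Suv39h1, Suv39h2, Trim28, Atf7ip, Cbx1, Cbx3 and Cbx5. They were chosen by name and not by a rule on their values, though with earlier results of these data known. All 10 were among the 16982 genes of the count table, and all 10 were among the 13386 genes that had enough reads to be tested. RNA-seq was performed on mouse embryonic fibroblasts (MEFs) at day 3 of reprogramming, in 3 wild-type (WT) and 3 Rnf20 knockout (KO) libraries. All cells carried the reprogramming factors OCT4, SOX2, KLF4 and C-MYC from retroviruses. The MEFs came from mice with loxP sites on both sides of Rnf20 exons 2 to 4 and a ubiquitous tamoxifen-inducible Cre, and the knockout was produced in culture with 4-OH tamoxifen. The labels give C57BL/6 as the background of all 6 samples and list them as untreated, and whether the WT cells received the drug is not given in the sources used here. The MEFs were isolated from mid-gestation embryos, whose sex and number are not given in the sources used here, and feeder MEFs were used in the culture. The labels do not say whether the replicates were separate cultures, so each p-value measures the spread between these samples, part of which may be technical.

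H3K9 methylation is a mark of silent chromatin. SUV39H1 and SUV39H2 trimethylate it in pericentromeric heterochromatin, EHMT1 and EHMT2 act together to dimethylate it in silent euchromatin, and SETDB1 trimethylates it at retroelements and other targets that TRIM28 brings it to. The HP1 proteins CBX1, CBX3 and CBX5 bind the methylated tail through a chromodomain and help to compact the chromatin. H3K9 methylation is known as a barrier that cells have to overcome during reprogramming to pluripotency. RNF20 is the E3 ligase that attaches ubiquitin to histone H2B, and the question addressed here is at what level the H3K9 methylation and HP1 genes were transcribed when it was missing.

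In the KO cells 6 of the 10 genes fell and none rose. The largest fall was that of the SUV39 pair, with Suv39h2 at 43.8% and Suv39h1 at 53.2% of the WT mean. All 3 HP1 genes fell, Cbx5 to 59.7%, Cbx3 to 71.6% and Cbx1 to 73.3% of the WT mean, and Trim28 fell to 69.6%. Setdb1, Ehmt1, Ehmt2 and Atf7ip did not pass the test. A gene is said to fall or rise at an adjusted p under 0.05 in the quasi-likelihood test of edgeR, the p-values being adjusted by Benjamini-Hochberg over all genes tested. By that rule 16.6% of all genes tested were lower in the KO cells and 16.4% were higher, so that 6 of 10 stands against 16.6%. In this test none of the 10 fell at an adjusted p under 0.01, where 4.89% of all genes did. The study's own rule for a lower gene is FDR under 0.01, fold over 2 and FPKM over 1. With this test's adjusted p as the FDR none of the 10 met it, and 2.08% of all genes did. For a higher gene by that rule the share of all genes was 1.5%, and none of the 10 was among them. The median log2 fold change was -0.46 over the 10 genes and -0.00032 over all genes tested. Other tests gave the 6 genes smaller adjusted p-values, 6.67e-05 to 0.00512 in the DESeq2 Wald test and 0.000290 to 0.0136 in the edgeR exact test. At an adjusted p under 0.05, 6 of the 10 fell by either test, where 18.6% and 16.8% of all genes tested fell. By these tests Suv39h2 met the study's rule (log2 fold change -1.18 and -1.19, adjusted p = 0.00186 and 0.00263, WT mean FPKM 5.36). The share of all genes that met the study's rule by these tests was not counted, so this call has no background beside it.

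The 6 libraries held 20545442 to 21746898 counts each. Rnf20 itself was at 107, 107 and 106 CPM (counts scaled to a common library size) in the WT libraries and at 18.7, 18.5 and 16.4 CPM in the KO libraries, a log2 fold change of -2.57 (SE 0.0812, adjusted p = 0.000163). The library of KO replicate 3 stood apart from the other 5. The chi-square statistic per gene was 92.4 and 101 between it and the other KO libraries, against 8.57 between those and 6.04 to 8.92 between pairs of WT libraries. Ddx3y, which lies on the Y chromosome, was at 94.4 to 101 CPM in the WT libraries and 128 CPM in KO replicate 2 but had no count in KO replicates 1 and 3. The KO libraries were thus not all repeats of the same cells, and Ddx3y was not balanced between WT and KO. The part of sex or embryo in the results was not tested. Fibroblast markers summed to 31274 to 33966 CPM in WT and to 32762, 40893 and 22238 CPM in KO replicates 1, 2 and 3. Most of the sum was Col1a1, Col1a2 and Col3a1, none of which passed the test. Of the 12 markers 2 fell and none rose, where 16.6% of all genes tested fell. Thy1 fell from a mean of 180 CPM in WT to 83.7 CPM in KO (adjusted p = 0.00251). Pdgfra fell from 199 to 85.3 CPM (adjusted p = 0.0185). The 10 macrophage markers summed to 56.7 to 116 CPM in WT and to 94.0, 60.6 and 269 CPM in KO, the 5 epithelial markers tested to 54.4 to 58.3 CPM in WT and to 76.5, 53.0 and 21.5 CPM in KO, and the 2 endothelial markers tested to 47.9 to 58.9 CPM in WT and to 66.3, 52.8 and 31.6 CPM in KO. Most of the macrophage sum in KO replicate 3 was Lyz2, at 159 CPM. There C1qa, C1qb and Cd68 were not above their highest WT level, and the other macrophage markers were. Most of the endothelial sum was Tek, at a mean of 52.4 CPM in WT and 49.1 CPM in KO. Ptprc and Csf1r of macrophages and Epcam and Cdh1 of epithelia had counts in every library, while Pecam1 and Cdh5 of endothelium had too few to be tested. Pecam1 had 2, 1 and 0 counts in WT and 11, 10 and 11 in KO, and Cdh5 had 5, 1 and 0 in WT and 1, 5 and 3 in KO. Of the pluripotent cell markers only Nanog could be tested, and it was at 0.902 to 2.23 CPM in WT and at 0.811, 0.617 and 0.286 CPM in KO. Of the epithelial markers tested 1 rose and none fell. It was Krt19, at a mean of 13.8 CPM in WT and 30.4 CPM in KO (log2 fold change 1.14, adjusted p = 0.0274), while Krt8 was at 29.4 and 10.4 CPM (adjusted p = 0.189). No macrophage, endothelial or pluripotent cell marker passed the test. The part of these markers in the results below was not tested.

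The start regions of the 3 genes with the largest falls are shown because their levels separated most between the groups. They were taken from the RefSeq promoter table on GRCm38.p6 and hold only bases outside annotated exons. Capitals mark the word CCAAT, which binds the factor NF-Y, here on the opposite strand as ATTGG. The Suv39h1 sequence is from the minus strand at chrX:8074761-8075010, the Suv39h2 sequence from the minus strand at chr2:3475032-3475236 and the Cbx5 sequence from the minus strand at chr15:103239853-103240102.
Suv39h1: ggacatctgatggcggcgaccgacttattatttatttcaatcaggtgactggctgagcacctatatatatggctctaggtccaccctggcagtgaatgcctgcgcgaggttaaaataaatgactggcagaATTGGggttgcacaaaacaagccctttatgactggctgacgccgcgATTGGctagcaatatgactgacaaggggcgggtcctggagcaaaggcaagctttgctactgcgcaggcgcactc
Suv39h2: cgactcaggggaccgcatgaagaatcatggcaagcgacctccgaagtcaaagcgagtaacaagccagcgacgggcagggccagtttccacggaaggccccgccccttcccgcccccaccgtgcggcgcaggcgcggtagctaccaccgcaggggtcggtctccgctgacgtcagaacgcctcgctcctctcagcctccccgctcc
Cbx5: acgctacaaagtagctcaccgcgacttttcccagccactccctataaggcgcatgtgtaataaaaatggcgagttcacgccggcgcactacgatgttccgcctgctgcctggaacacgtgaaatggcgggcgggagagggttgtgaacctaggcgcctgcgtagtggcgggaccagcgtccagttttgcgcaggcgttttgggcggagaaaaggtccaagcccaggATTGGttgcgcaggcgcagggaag
Suv39h1 held 2 copies of CCAAT, whose first bases lie at positions -120 and -74 from the start site, Cbx5 held 1 at position -24, and the Suv39h2 sequence held none. In windows of 300 bases, from 250 before to 50 after a start, CCAAT was found on either strand in 37.4% of 32851 windows of all genes and in 4 of the 14 windows of the 10 genes (Setdb1, Suv39h1, Cbx5 and Atf7ip).

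The words TTTGGCGC, TTTGCCGC, TTTCGCGC and TTTCCCGC, which E2F factors of the cell cycle bind, were searched on both strands of the same windows. They were found in 2.26% of all windows and in 2 of the 14, 1 of Suv39h1 and 1 of Cbx3. Both sites are shown with their 30 bases, the word in capitals, the Suv39h1 site from the minus strand at chrX:8074407-8074436 and the Cbx3 site from the plus strand at chr6:51470437-51470466.
Suv39h1: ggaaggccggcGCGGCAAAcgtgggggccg
Cbx3: tggagccccgcTTTGGCGCgctccgagacg
The Suv39h1 word is on the opposite strand and begins at position -64 from another annotated start of the gene, and the Cbx3 word begins at position -168 from its RefSeq start. Both sites lie inside the annotated spans of their genes given below, and both windows begin inside an annotated exon. The word TTTGAA (CHR), found in many cell cycle promoters, was in 17.9% of all windows and in 2 of the 14, those of Suv39h2 and Atf7ip. These matches are descriptions of letters and not of binding.

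SUV39H1 and SUV39H2 are the paired trimethylases of constitutive heterochromatin. Suv39h1 (ENSMUSG00000039231, chrX:8061171-8074760, minus strand) was at 45.0, 47.8 and 47.0 CPM in WT replicates 1, 2 and 3 and at 29.5, 27.6 and 17.3 CPM in KO replicates 1, 2 and 3. Every KO library was below every WT library. The log2 fold change was -0.91 (SE 0.192, adjusted p = 0.0155). The gene is on the X chromosome, and the KO library with counts of Ddx3y, at 27.6 CPM, lay between the KO libraries without them. Without KO replicate 3 the log2 fold change was -0.71 (adjusted p = 3.49e-05), and the call was lost without any 1 of the WT libraries (adjusted p = 0.0516 to 0.0641). Its exons share 767 bases with an antisense transcript, Gm14820, on the opposite strand, which was not in the count table.

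Suv39h2 (ENSMUSG00000026646, chr2:3455815-3475031, minus strand) was at 13.8, 12.1 and 13.4 CPM in WT and at 8.16, 5.89 and 3.19 CPM in KO. The groups did not overlap, and KO replicate 3 was the lowest. Its 67 counts there give a 95% exact Poisson interval of 2.47 to 4.05 CPM, which covers counting error only. The log2 fold change was -1.19 (SE 0.311, adjusted p = 0.0287), and without KO replicate 3 it was -0.90 (adjusted p = 0.000972). The call was lost without KO replicate 2 (adjusted p = 0.0664) and without any 1 of the WT libraries (adjusted p = 0.0811 to 0.0963). Its exons overlap those of Dclre1c, a DNA repair nuclease gene on the opposite strand, over 357 bases, and whether strand was used in counting is not given in the sources used here. Dclre1c held 195 to 245 counts a library and had a log2 fold change of 0.056 (adjusted p = 0.767).

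Of the reads per kilobase of the SUV39 pair, Suv39h1 took 84.8% ± 1.25 (SD, n = 3) in WT and 87.6% ± 2.28 (SD, n = 3) in KO. The difference of 2.71 percentage points did not pass an exact two-sided permutation test (p = 0.2, adjusted p = 0.6 over the 6 shares and ratios compared). It was 1.73 points without KO replicate 3. With 3 libraries against 3 the exact permutation test cannot go below p = 0.1.

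The HP1 genes encode the readers of the mark. Cbx5, the gene of HP1 alpha (ENSMUSG00000009575, chr15:103191544-103239816, minus strand), was at 285, 294 and 249 CPM in WT and at 191, 180 and 123 CPM in KO. All KO libraries were below all WT libraries, with a log2 fold change of -0.74 (SE 0.171, adjusted p = 0.0197). Cbx3, the gene of HP1 gamma (ENSMUSG00000029836, chr6:51470360-51483704, plus strand), was at 215, 225 and 188 CPM in WT and at 156, 153 and 141 CPM in KO, with a log2 fold change of -0.48 (SE 0.0889, adjusted p = 0.0106). Its groups did not overlap either. Cbx1, the gene of HP1 beta (ENSMUSG00000018666, chr11:96789127-96808640, plus strand), was at 121, 118 and 116 CPM in WT and at 93.6, 95.3 and 71.8 CPM in KO. Its groups did not overlap, and its log2 fold change was -0.45 (SE 0.116, adjusted p = 0.0284). Without KO replicate 3 the log2 fold changes were -0.57 for Cbx5 (adjusted p = 0.000175), -0.44 for Cbx3 (adjusted p = 0.000871) and -0.33 for Cbx1 (adjusted p = 0.000750). Without any 1 of the WT libraries the calls of Cbx5 (adjusted p = 0.0570 to 0.0765) and Cbx1 (adjusted p = 0.0880 to 0.0930) were lost, and that of Cbx3 was not.

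Cbx3 has 13 near copies elsewhere in the transcript annotation that match at least 300 bases at 90% identity or more, 11 of them pseudogenes, and Cbx1 has 1. How reads that match several places were counted is not given in the sources used here, so the levels of Cbx3 and Cbx1 are uncertain to that extent. Suv39h1 matches Gm14820 over 600 bases, but that is the antisense transcript over its own exons and not a second place. Whether strand was used in counting is not given for it either.

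In RPKM (CPM per kilobase of the gene's length), the 3 HP1 genes summed to 201, 205 and 180 in WT and to 146, 144 and 121 in KO. Cbx3 held most of the sum, 56.7% ± 1.33 (SD, n = 3) in WT and 58.1% ± 3.22 (SD, n = 3) in KO, followed by Cbx1 with 27.5% ± 1.62 and 28.5% ± 1.58. The Cbx5 share was 16.0%, 16.0% and 15.5% in WT and 14.7%, 14.01% and 11.4% in KO. It was lower in 3 of 3 KO libraries than in any WT library, with a difference of -2.47 percentage points (exact two-sided permutation test, p = 0.1, the smallest it can give, and adjusted p = 0.6). That difference was -1.48 percentage points without KO replicate 3. The shares of Cbx1 and Cbx3 overlapped between the groups. The order of the shares depends on the lengths used, 1889 bases for Cbx3, 2212 for Cbx1 and 8922 for Cbx5. All annotated exons together cover 5992, 4273 and 9006 bases. In CPM, which is not divided by length, Cbx5 had the highest WT mean, 276 against 209 for Cbx3 and 119 for Cbx1.

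**Figure D1:**
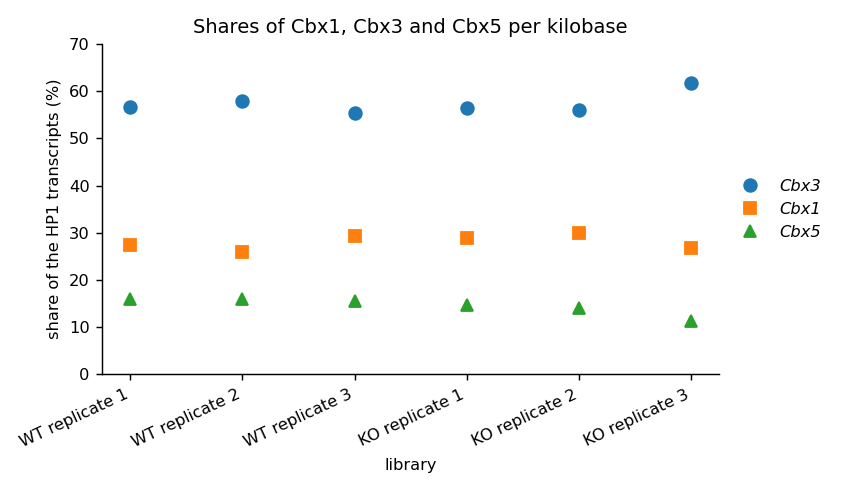
Share of Cbx1, Cbx3 and Cbx5 in their summed reads per kilobase (y axis, %) in each of the 6 libraries (x axis), with 1 point per gene and library. With the gene lengths used, the order Cbx3, Cbx1, Cbx5 was the same in all 6 libraries, and the Cbx5 share was lowest in KO replicate 3, at 11.4%.

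Trim28 encodes the corepressor that KRAB zinc finger proteins recruit and that brings in SETDB1 and HP1. Trim28 (ENSMUSG00000005566, chr7:12999114-13031035, plus strand) was at 410, 404 and 426 CPM in WT and at 317, 323 and 223 CPM in KO. The groups did not overlap, and the log2 fold change was -0.52 (SE 0.145, adjusted p = 0.0343). Without KO replicate 3 it was -0.37 (adjusted p = 0.000268), and without any 1 of the WT libraries the call was lost (adjusted p = 0.0945 to 0.111).

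Setdb1 and Atf7ip, the gene of a cofactor that keeps SETDB1 stable in the nucleus, did not pass the test with all 6 libraries. The KO mean of Setdb1 was 74.7% of the WT mean, near that of Cbx1 at 73.3%, but its SE was larger (0.195 against 0.116). Setdb1 (ENSMUSG00000015697, chr3:95323525-95357202, minus strand) was at 86.8, 83.5 and 90.1 CPM in WT and at 77.3, 72.5 and 44.9 CPM in KO. The log2 fold change was -0.42 (95% interval -0.88 to 0.044, adjusted p = 0.140), and KO replicate 3 lay far below the other KO libraries. Without that library the log2 fold change was smaller, -0.21, and passed the test (adjusted p = 0.0185). Exons of Setdb1 overlap those of Cers2, a ceramide synthase gene on the opposite strand, over 75 bases, and Cers2 rose by 0.45 (adjusted p = 0.0217). Atf7ip (ENSMUSG00000030213, chr6:136506167-136610862, plus strand) was at 131, 119 and 119 CPM in WT and at 112, 109 and 104 CPM in KO. The groups did not overlap, and the log2 fold change of -0.18 (95% interval -0.35 to -0.0052) had an unadjusted p of 0.0451 and an adjusted p of 0.102 in the quasi-likelihood test. The log2 ratio of Atf7ip to Setdb1 per kilobase was -0.31 ± 0.099 (SD, n = 3) in WT and -0.032 ± 0.377 (SD, n = 3) in KO (exact two-sided permutation test, p = 0.3, adjusted p = 0.6). KO replicate 3 alone had a ratio above 0, at 0.40, and without it the difference between the groups was 0.064 in place of 0.28.

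EHMT1 and EHMT2 form the dimethylase. Ehmt1 (ENSMUSG00000036893, chr2:24789928-24919614, minus strand) was at 102, 107 and 112 CPM in WT and at 96.4, 98.0 and 71.1 CPM in KO, with a log2 fold change of -0.27 (95% interval -0.58 to 0.041, adjusted p = 0.153). Ehmt2 (ENSMUSG00000013787, chr17:34898469-34914052, plus strand) was at 250, 245 and 263 CPM in WT and at 229, 236 and 226 CPM in KO, with a log2 fold change of -0.13 (95% interval -0.29 to 0.020, adjusted p = 0.153). For both genes the KO libraries were below the WT libraries without overlap in CPM, but neither difference passed the test. Without KO replicate 3 the log2 fold change of Ehmt1 was -0.13 (adjusted p = 0.0880) and that of Ehmt2 -0.12 (adjusted p = 0.0950). The intervals leave room for a fall of Ehmt2 of up to 0.29 and of Ehmt1 of up to 0.58 on the log2 scale. Ehmt1 took 22.4% ± 0.586 (SD, n = 3) of the pair's reads per kilobase in WT and 20.7% ± 2.60 (SD, n = 3) in KO (exact two-sided permutation test, p = 0.4, adjusted p = 0.6), with 17.7% in KO replicate 3. The difference was -1.70 percentage points with that library and -0.21 without it.

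**Figure D2:**
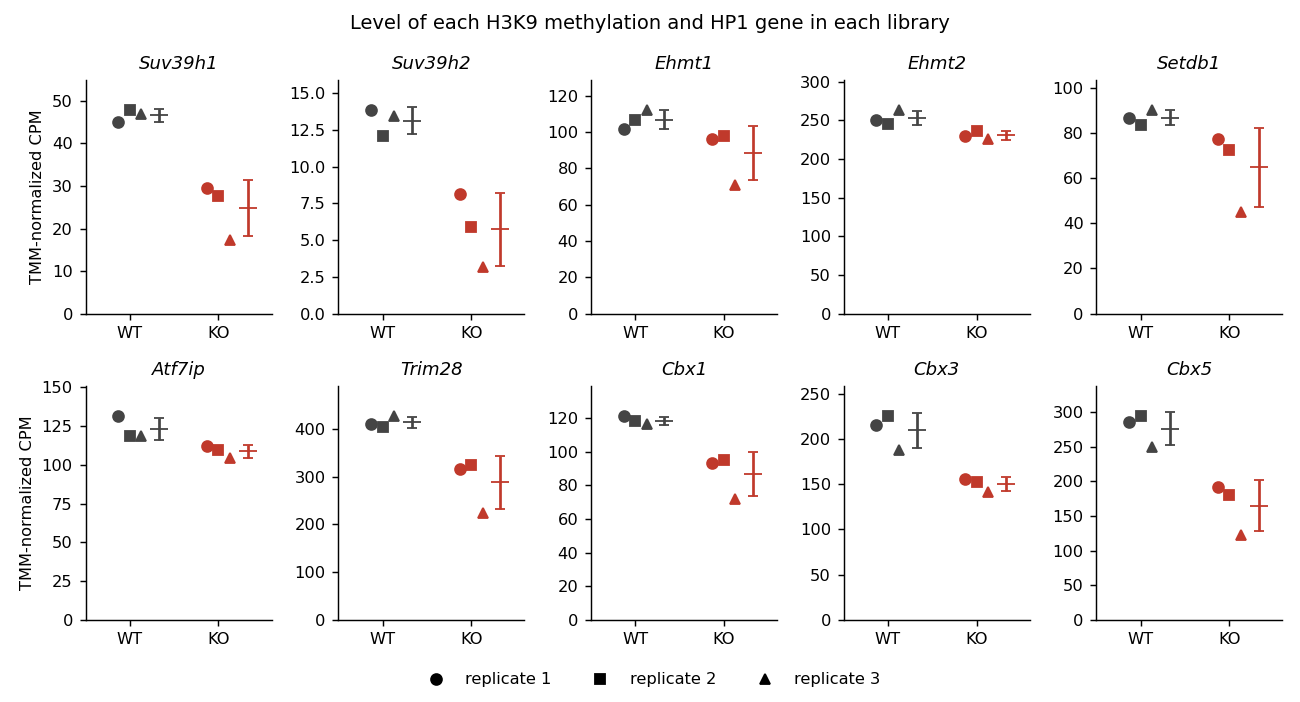
TMM-normalized CPM (y axes, each from 0) of the 10 genes in the 3 WT (grey) and 3 KO (red) libraries, 1 panel per gene. Symbols give the replicate, and the bars beside them give the mean and SD. In all 10 panels the KO points lie below the WT points, and the triangle of KO replicate 3 is the lowest.

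In all 10 genes every KO library was below every WT library in CPM, which held for 28.2% of all genes tested. In the authors' FPKM Ehmt2 overlapped, at 55.3 in KO replicate 3 and 54.8 in WT replicate 2. The plot of levels by library also shows that all 10 genes were lowest in KO replicate 3 in CPM. In FPKM that library was not the lowest KO library for Ehmt2 or Atf7ip. Of all genes tested 44.0% had their lowest KO level in CPM in KO replicate 3, and of the genes that fell 69.5% did. Against the WT mean the median of the 10 genes was -0.36 on the log2 scale in KO replicate 1, -0.33 in KO replicate 2 and -0.81 in KO replicate 3, while the median of all genes tested was between -0.019 and -0.0083 in these libraries. Without KO replicate 3, 7 of the 10 genes fell, the same 6 and Setdb1, where 24.2% of all genes tested fell. Without WT replicate 1, 2 or 3, 1 of the 10 fell in each case, Cbx3, where 7.31%, 6.13% and 5.17% of all genes fell, so that 1 of 10 is near the share of all genes. The other 5 genes that had fallen then had an adjusted p of 0.0516 to 0.111. In bulk RNA, fewer cells of a type and less RNA per cell cannot be told apart.

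**Figure D3:**
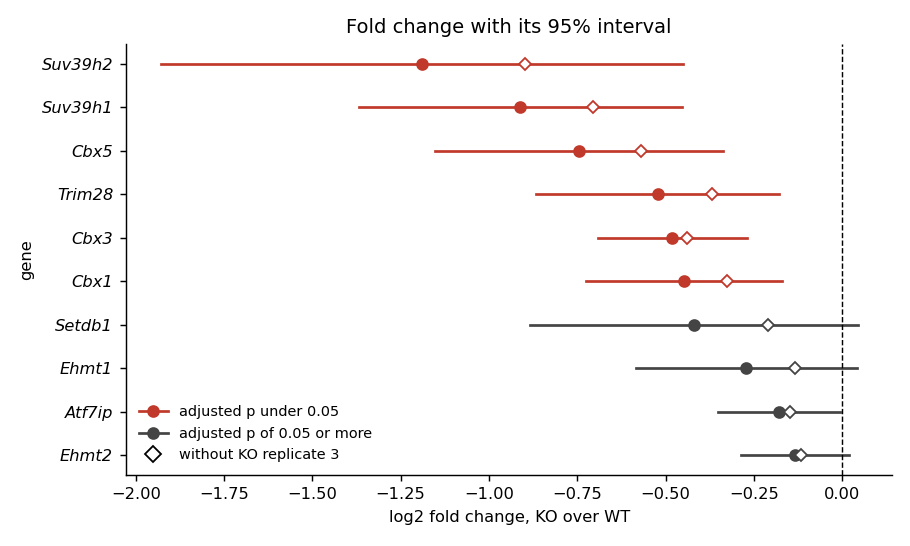
Log2 fold change of KO over WT (x axis) for the 10 genes (y axis), with lines for the 95% interval of the quasi-likelihood test and red for an adjusted p under 0.05. Open diamonds give the value without KO replicate 3. The filled points run from -1.19 for Suv39h2 to -0.13 for Ehmt2, and all diamonds lie nearer to 0 than the filled points.

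Levels can be compared between genes only per length. In RPKM, Trim28 was highest in WT with 127 ± 3.49 (SD, n = 3), followed by Cbx3 with 111 ± 10.03, Ehmt2 with 62.1 ± 2.26, Cbx1 with 53.6 ± 1.06 and Cbx5 with 30.9 ± 2.68. Setdb1 with 18.6 ± 0.700 and Ehmt1 with 17.9 ± 0.852 overlapped between libraries, as did Atf7ip with 15.0 ± 0.876 and Suv39h1 with 14.9 ± 0.467. Suv39h2 was lowest with 2.66 ± 0.184, and Trim28 was 47.8-fold above it. In the authors' FPKM 4 neighbouring pairs of this order were the other way in their WT means, with Cbx3 (162) above Trim28 (140), Cbx1 (63.2) above Ehmt2 (56.5), Ehmt1 (21.9) above Setdb1 (17.9) and Suv39h1 (17.0) above Atf7ip (16.2), and Trim28 was 26.2-fold above Suv39h2.

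In KO the order was nearly the same. Trim28 was at 88.6 ± 17.3 RPKM (SD, n = 3) and its range overlapped that of Cbx3 at 79.4 ± 4.03 RPKM. Suv39h1, at 7.93 ± 2.096 RPKM, no longer overlapped Atf7ip at 13.3 ± 0.491 RPKM. Suv39h2 remained lowest, at 1.17 ± 0.505 RPKM. The genes that fell lay at both ends of the WT order, with Trim28 first and Suv39h2 last, and Ehmt2 in the third place did not pass.

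**Figure D4:**
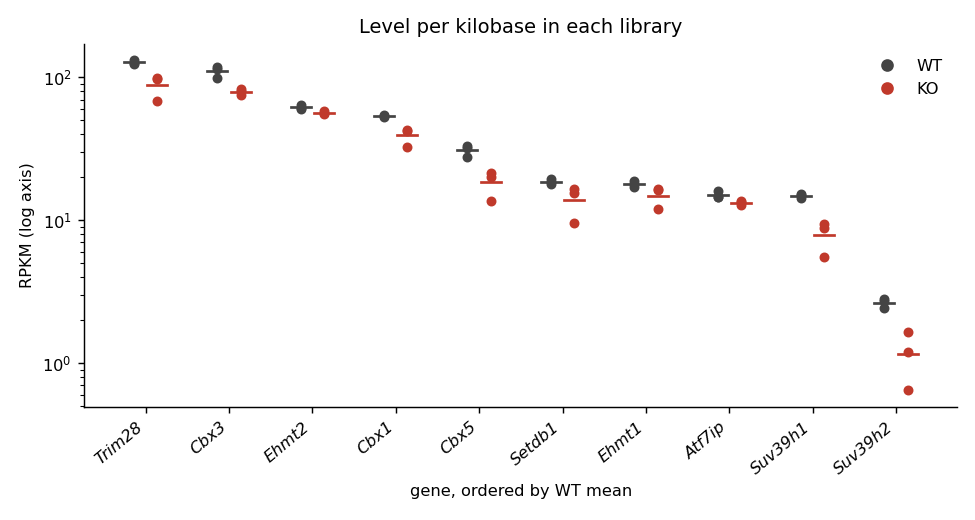
RPKM (y axis, log scale) of the 10 genes, ordered by WT mean (x axis), in the WT (grey) and KO (red) libraries, with bars at the means. The WT means run from 127 for Trim28 to 2.66 for Suv39h2, and the widest gaps between grey and red are at Suv39h1 and Suv39h2.

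Other genes of the pathway were counted from lists of names. Of all genes tested 16.6% fell and 16.4% rose, with a median log2 fold change of -0.00032. Of 20 other H3K9 methyltransferases and complex partners tested, such as the PRDM enzymes, the CDYL proteins and the HUSH complex, 1 fell and 1 rose, with a median log2 fold change of -0.015. The gene that fell was Zfp57, a KRAB zinc finger gene that protects imprints, at 22.01, 22.3 and 23.9 CPM in WT and 17.9, 16.9 and 18.2 CPM in KO (log2 fold change -0.37, adjusted p = 0.0215). Its call was lost without any 1 of the WT libraries or KO replicate 2 (adjusted p = 0.0639 to 0.0891). The gene that rose was Pphln1, a HUSH subunit, at 63.1, 65.4 and 60.4 CPM in WT and 76.8, 75.0 and 72.2 CPM in KO (log2 fold change 0.25, adjusted p = 0.0350). Its call was lost without any library except KO replicate 3 (adjusted p = 0.0823 to 0.130). Of 11 H3K9 demethylase genes tested, 1 fell and none rose, with a median of -0.12 and a negative value in 11 of 11. The gene that fell was Phf2, a JmjC protein gene, at 122, 119 and 114 CPM in WT and 95.5, 99.0 and 77.9 CPM in KO (log2 fold change -0.38, adjusted p = 0.0311), and its call was lost without any 1 of the WT libraries or KO replicate 1 (adjusted p = 0.0503 to 0.103).

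Of 19 genes for HP1 partners and other heterochromatin proteins, 12 fell and none rose, with a median log2 fold change of -0.77. The shares of all genes tested that fell and rose were 16.6% and 16.4%. Sgol1, the shugoshin that protects centromeric cohesion and binds HP1, was at 19.5, 17.2 and 17.8 CPM in WT and 5.92, 6.32 and 3.67 CPM in KO (log2 fold change -1.78, adjusted p = 0.00360). Chaf1b, a subunit of the replication-linked histone chaperone CAF-1, was at 21.3, 23.7 and 26.6 CPM in WT and 9.64, 7.55 and 5.19 CPM in KO (log2 fold change -1.68, adjusted p = 0.00487). Both met the study's rule. Without WT replicate 1, 2 or 3, 6, 5 and 5 of the list fell, without KO replicate 2, 8 did, and without KO replicate 3, 15 did. In these fits 7.31%, 6.13%, 5.17%, 11.6% and 24.2% of all genes tested fell. Several of this list, Sgol1, Chaf1b and Uhrf1 among them, are known to be expressed in dividing cells.

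Genes for proliferation were lower too. Of 24 tested 23 fell and none rose, with a median log2 fold change of -1.39, where 16.6% of all genes tested fell and 16.4% rose. The summed level of the list was 2478 to 2512 CPM in WT and 1183, 1032 and 515 CPM in KO replicates 1, 2 and 3. Mki67, a marker of cycling cells, had a log2 fold change of -2.08 (adjusted p = 0.0239), and Top2a, a topoisomerase of mitotic chromosomes, one of -1.78 (adjusted p = 0.0279). Both calls were lost without any 1 of the WT libraries (adjusted p = 0.0732 to 0.0860), and that of Top2a also without KO replicate 2 (adjusted p = 0.0509). Without WT replicate 1, 2 or 3, 14, 13 and 12 of the list fell, where 7.31%, 6.13% and 5.17% of all genes tested did. The sum was lowest in KO replicate 3, as were all 10 H3K9 methylation and HP1 genes in CPM. The part of proliferation in the falls of those genes was not tested.

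**Figure D5:**
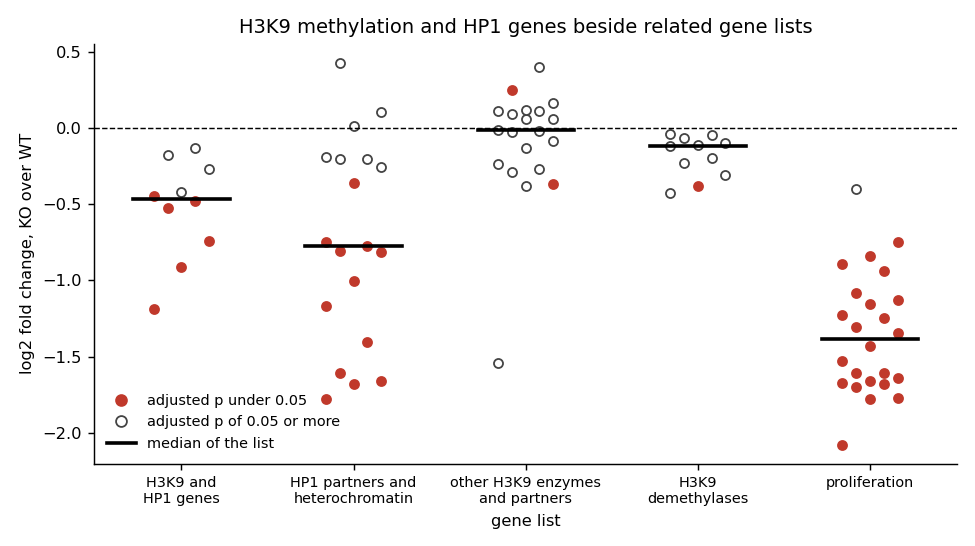
Log2 fold change of KO over WT (y axis) of each tested gene in the 10 H3K9 methylation and HP1 genes and in 4 related lists (x axis), with filled points at an adjusted p under 0.05 and bars at the medians. The medians are -0.46, -0.77, -0.015, -0.12 and -1.39 from left to right.

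Of 23 listed germline genes that are known to be silenced through H3K9 methylation, 11 were in the table and 5 had enough counts to be tested. Of all genes tested 16.6% fell and 16.4% rose, and of these 5 none fell and 1 rose. It was Asb4, an imprinted gene that is not restricted to the germline, at a mean of 0.934 CPM in WT and 2.92 CPM in KO (log2 fold change 1.64, adjusted p = 0.0249), and its call was lost without WT replicate 2, WT replicate 3 or KO replicate 1 (adjusted p = 0.0521 to 0.0911). The median of the 5 was 0.0041.

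Cbx5 and Cbx3 were the genes of the 10 with a divergent coding neighbour whose start lay within 1000 bases, and both neighbours fell, where 16.6% of all genes tested did. Their calls were not examined with a replicate left out, and whether the neighbours are regulated together was not tested. The start of Cbx5 is 616 bases from that of Hnrnpa1, which encodes an RNA-binding protein of splicing and was at 1047, 1136 and 1022 CPM in WT and 651, 620 and 404 CPM in KO (log2 fold change -0.94, adjusted p = 0.0119). The start of Cbx3 is 466 bases from that of Hnrnpa2b1, a gene of the same family, which was at 862, 903 and 822 CPM in WT and 684, 640 and 440 CPM in KO (log2 fold change -0.55, adjusted p = 0.0424). The 4 genes were lowest in KO replicate 3.

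Suv39h2 had the largest fall, and the genes outside the 10 whose log2 CPM followed it most closely over the 6 libraries were Tbx4 (Pearson's r = 0.999), Dmp1 (0.998), Tbc1d1 (0.998), Diaph3 (0.998) and Kdm2b (0.998). An r above 0.99 was reached by 82 genes. The 6 points form 2 groups and share KO replicate 3 as their lowest, so these values describe the libraries only.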

How the data were processed

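Poly(A) RNA from 3 WT and 3 Rnf20 KO samples at day 3 of reprogramming was sequenced as stranded paired-end libraries. The authors aligned the reads to the mouse genome (GRCm38/mm10). The submitters' processing notes name HISAT2 2.1.0 and Cufflinks 2.1.1. The deposited counts are raw counts per gene, and the deposited FPKM values are normalized by the authors for depth and length. The counting program is not given in the sources used here. The counts were repeated in the FPKM file, where 0 differed. Columns with the authors' fold changes and p-values were not used.

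Counts were tested with edgeR 4.0.16 in R 4.3.3 (TMM, filterByExpr, quasi-likelihood test, all 6 libraries, no covariate), with Benjamini-Hochberg adjustment over 13386 genes. CPM values are TMM-normalized, and RPKM values use the gene length in the table. With 20545442 to 21746898 counts a library, 3 counts are 0.142 to 0.143 CPM. Shares were compared with exact permutation tests. DESeq2 1.42.0, limma 3.58.1 on log2(FPKM + 1) and other settings were alternatives. The procedure was tested on simulated data. Loci and exons are from GENCODE M21 (GRCm38), which held 16486 of the 16982 identifiers, promoters from RefSeq (GRCm38.p6), and near copies from BLAST 2.17.0.

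The genes and the gene lists were chosen with earlier results of these data known. Genes named from the lists are the 2 with the largest change that passed in each direction. Uhrf1 and the single markers of cell types were named after their values were seen, and Cers2, Dclre1c, Hnrnpa1 and Hnrnpa2b1 for their position.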

Additional observations from a re-analysis of the deposited data

How the results depend on the processing

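The log2 fold changes of all 10 H3K9 methylation and HP1 genes were negative under each of the 14 other settings with a test. Only Cbx3 passed in every one. The number of these genes that fell was 6, and 0 at an adjusted p under 0.01 in the quasi-likelihood test. In the Wald test of DESeq2 the 6 genes had an adjusted p of 6.67e-05 to 0.00512. The number was 1 to 7 when each replicate was left out in turn. It was 1 without any 1 of the WT replicates and 7 without KO replicate 3. Suv39h2 also lost its call without KO replicate 2 (adjusted p = 0.0664). With library size only, Atf7ip passed (adjusted p = 0.0491), the median log2 fold change of all genes was -0.060, and 60.5% of all called genes were lower, against 50.3% in the reported fit. Over all genes, 702 to 3280 were lower with each replicate left out, the fewest without WT replicate 3 and the most without KO replicate 3. Of the values of single genes under other settings, 216 kept their direction and side of the threshold, 48 kept their direction but no longer passed, and 2 newly passed.

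For the other H3K9 methyltransferases and partners, the number lower was 2 with the exact test, 0 with limma on FPKM, 0 at an adjusted p under 0.01 and 0 to 2 with each replicate left out, and the number higher was 0 with library size only, no filter, the exact test, FPKM, the replicate block and an adjusted p under 0.01, and 0 to 4 with each replicate left out. For HP1 partners, the number lower was 3 at an adjusted p under 0.01 and 5 to 15 with each replicate left out, and the number higher was 1 with DESeq2, the exact test and FPKM, and 0 to 1 with each replicate left out. For demethylases, the number lower was 3 with library size only, 2 with DESeq2 and with the replicate block, 0 at an adjusted p under 0.01 and 0 to 3 with each replicate left out. For germline genes, the number higher was 0 with the replicate block and at an adjusted p under 0.01, and 0 to 1 with each replicate left out. For proliferation genes, the number lower was 11 at an adjusted p under 0.01 and 12 to 24 with each replicate left out. The cause of these changes was not tested. The share of all genes that fell moved too. It was 4.89% with the threshold of 0.01 and 5.17% to 24.2% over the replicates left out. Under the other settings it was 11.1% to 20.1%. The count of 4 higher methyltransferase and partner genes came from the fit without KO replicate 3. In that fit 3230 of all 13529 genes tested rose, so the 4 do not stand out.

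The difference in the Cbx3 share turned to -0.42 percentage points without KO replicate 3 and ran from there to 2.44 over the replicates left out. The Cbx5 share differed by -4.99 points from raw counts not divided by length, and the Suv39h1 share by 6.00 points with FPKM.

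The replicate numbers are shared between the groups, but samples with the same number did not deviate together (r = -0.066, 0.037 and 0.011), and 2 of 6 correlated best with their own number. With the number as a replicate block, 5 of the 10 genes fell, Trim28 being lost (adjusted p = 0.0592), and 1490 genes were lower and 1385 higher, against 2218 and 2195. The block also changed the list counts given for it above. With it 10 of the HP1 partners fell, against 12, and 23 of the proliferation genes fell, as before. It changed no other call among the 10 genes. Depth limits Suv39h2 most, at 67 counts in its lowest library.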
